A study of Mus musculus with 20 samples.

Results

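The expression of 9 genes of the simple epithelium was followed in the colon of single mice: the keratin genes Krt7, Krt8, Krt18, Krt19, Krt20 and Krt23, the adhesion genes Epcam and Cdh1, and the villin gene Vil1. They were chosen by name, and the FPKM of all Ensembl transcript rows that belong to each gene were added up per mouse. All 9 were found, of 32991 genes with rows in the files. FPKM are fragments per kilobase of transcript and per unit of sequencing depth, so length and depth are allowed for when genes or mice are compared. The makeup of the library is not allowed for, and the rows of Krt8 and Epcam have gaps that are described further on.

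The data were RNA-seq libraries of colon from 20 mice, 1 library per mouse, in 4 groups of 5. Control mice received double distilled water, and PZH mice received Pien Tze Huang (PZH, a formula of Chinese medicine) by gavage at 250 mg/kg/d for 91 days. Model mice received azoxymethane (AOM, a colon carcinogen) at 12.5 mg/kg and 2% dextran sodium sulfate (DSS, which injures the colon lining) in cycles, with water by gavage, and Model + PZH mice received AOM, DSS and PZH. The mice were male C57BL/6, and AOM/DSS is a chemical model of colitis-associated cancer in which each piece of colon may hold different amounts of tumour, ulcer and intact mucosa, which the labels do not give.

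Keratins form the intermediate filaments of epithelial cells as pairs of a type I chain (Krt18, Krt19, Krt20 and Krt23) and a type II chain (Krt7 and Krt8). Krt8 and Krt18 make up the basic filament of single-layered epithelia, Krt19 joins them in the intestine, Krt20 marks differentiated cells near the mouth of the crypt, and Krt7 is better known from ducts and bladder than from intestinal absorptive cells. Cdh1 encodes E-cadherin, the adhesion protein of adherens junctions, Epcam encodes the epithelial cell adhesion molecule, and villin bundles the actin of the microvilli that form the brush border.

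AOM/DSS changed the keratins of the colon unequally. Krt23 and Krt7 were higher and Krt19 was lower in Model mice than in Control mice, with no overlap between the groups, while no change was found for Cdh1. With PZH on top of AOM/DSS, 4 of 5 mice had Krt7 and Krt23 levels below every Model mouse, and the remaining mouse, number 35, was within or above the Model range. No member passed the test for Model + PZH against Model in all mice. Both genes passed when mouse 35 was left out, but that mouse was singled out by its levels of these genes, so the values without it are a description and not an independent test.

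The keratin genes lie in 2 clusters (GRCm38). The type II gene Krt7 is at chr15:101411043-101430313 on the plus strand, and Krt8 at chr15:101996698-102004482 on the minus strand is followed by Krt18 at chr15:102028180-102032027 on the plus strand, a type I gene that sits in the type II cluster. Krt20 (chr11:99428403-99438150), Krt23 (chr11:99477974-99493137) and Krt19 (chr11:100140810-100148665) are all on the minus strand of chromosome 11. Epcam is at chr17:87635979-87651129, Cdh1 at chr8:106603351-106670246 and Vil1 at chr1:74409376-74435559, each on the plus strand.

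Krt7 and Krt23 were the members that rose with AOM/DSS, so the 250 bases before their start sites are shown from RefSeq (GRCm38.p6). Each is written 5′ to 3′ on the gene's own strand, ending just before the RefSeq start site, and capitals mark the motifs found. Distances are counted from that site. The gene spans given above take in other annotated starts, so the Krt7 window lies inside its span and the Krt23 window overlaps its span in part.
Krt7 (chr15:101412153-101412402, plus strand): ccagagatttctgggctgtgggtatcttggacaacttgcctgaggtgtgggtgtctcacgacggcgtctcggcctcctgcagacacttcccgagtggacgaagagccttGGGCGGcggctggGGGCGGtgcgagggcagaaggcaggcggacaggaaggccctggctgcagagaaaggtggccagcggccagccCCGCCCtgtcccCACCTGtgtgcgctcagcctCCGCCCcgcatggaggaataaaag
Krt23 (chr11:99493121-99493370, minus strand): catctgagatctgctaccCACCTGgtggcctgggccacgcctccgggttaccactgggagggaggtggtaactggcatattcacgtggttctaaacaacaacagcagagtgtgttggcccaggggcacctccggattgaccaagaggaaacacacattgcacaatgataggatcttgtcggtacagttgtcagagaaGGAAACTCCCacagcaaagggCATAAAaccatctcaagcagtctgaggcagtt
The Krt7 window held 4 GC boxes (GGGCGG, 2 on each strand) and 1 E-box (CACCTG) that begins 44 bases before the start. The Krt23 window held 1 E-box, 1 match to the NF-kB motif on the other strand, beginning 53 bases before the start, and 1 TTTATG on the other strand. Searched on both strands, the GC box is in 32.7% of 32851 RefSeq promoters of the same length, the E-box in 17.2%, the NF-kB motif in 0.356% and TTTATG in 10.8%. No bases are shared between these matches. The other motifs searched were the TATA box (TATAAA), the CACCC box (CCACCC), the AP-1 motif (TGANTCA), the TCF motif (CTTTGAT) and the STAT, Ets and HNF1 motifs, and neither window held any of them. The letters of the E-box are also in the windows of Krt8, Krt18 and Epcam, so that 5 of the 7 members with a window hold it. Krt19 and Cdh1 had no entry. No binding was measured here, and a match describes letters only.

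Depth was estimated from the steps of the low values at 15.3 to 19.45 M fragments a library, and no 2 files were identical. One field of the labels names the abdominal aorta as the dissected tissue while the tissue field says colon. The summed FPKM of 5 goblet cell genes lay between 2070 and 7159 and that of 6 colonocyte genes between 378.6 and 3856 in the 20 mice, so that genes of colon epithelium were abundant. Libraries of 3 mice stood apart. Control mice 17 and 50 had 569.2 and 412.9 summed FPKM of 11 keratins of stratified epithelium (Krt5, Krt14, Krt13 and others, typical of layered epithelia such as skin), against 4.97 to 5.79 in the other 3 Control mice and 2.25 to 3.52 in PZH mice. Model mice had 22.4 to 57.5, and among Model + PZH mice number 35 had 82.9 against 5.86 to 13.3 in the others. Members that passed the test with or without these mice are given both ways. The ratios, shares and correlations use all 20 mice. The removal of Control mice 17 and 50 was chosen after their values were seen. Each mouse in turn was left out by plan, but mouse 35 is singled out because of its values, Krt7 and Krt23 among them.

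In Control mice the levels of the members per length differed widely. The mean FPKM was 1879 ± 217 (SD, n = 5) for Krt19, 395.7 ± 112.4 for Krt20, 324.6 ± 37.9 for Krt18, 278.4 ± 39.7 for Cdh1, 236.9 ± 22.5 for Vil1, 40.2 ± 3.76 for Krt7 and 9.46 ± 5.80 for Krt23. Krt20 and Krt18 overlapped between mice, as did Krt18 and Cdh1, and Cdh1 and Vil1, so the order of these 4 neighbours is not fixed beyond the spread. Krt19 was above all of them in every mouse. Krt7 and Krt23 were below all of them in every mouse, and Krt23 was the lowest of the 7.

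**Figure D1:**
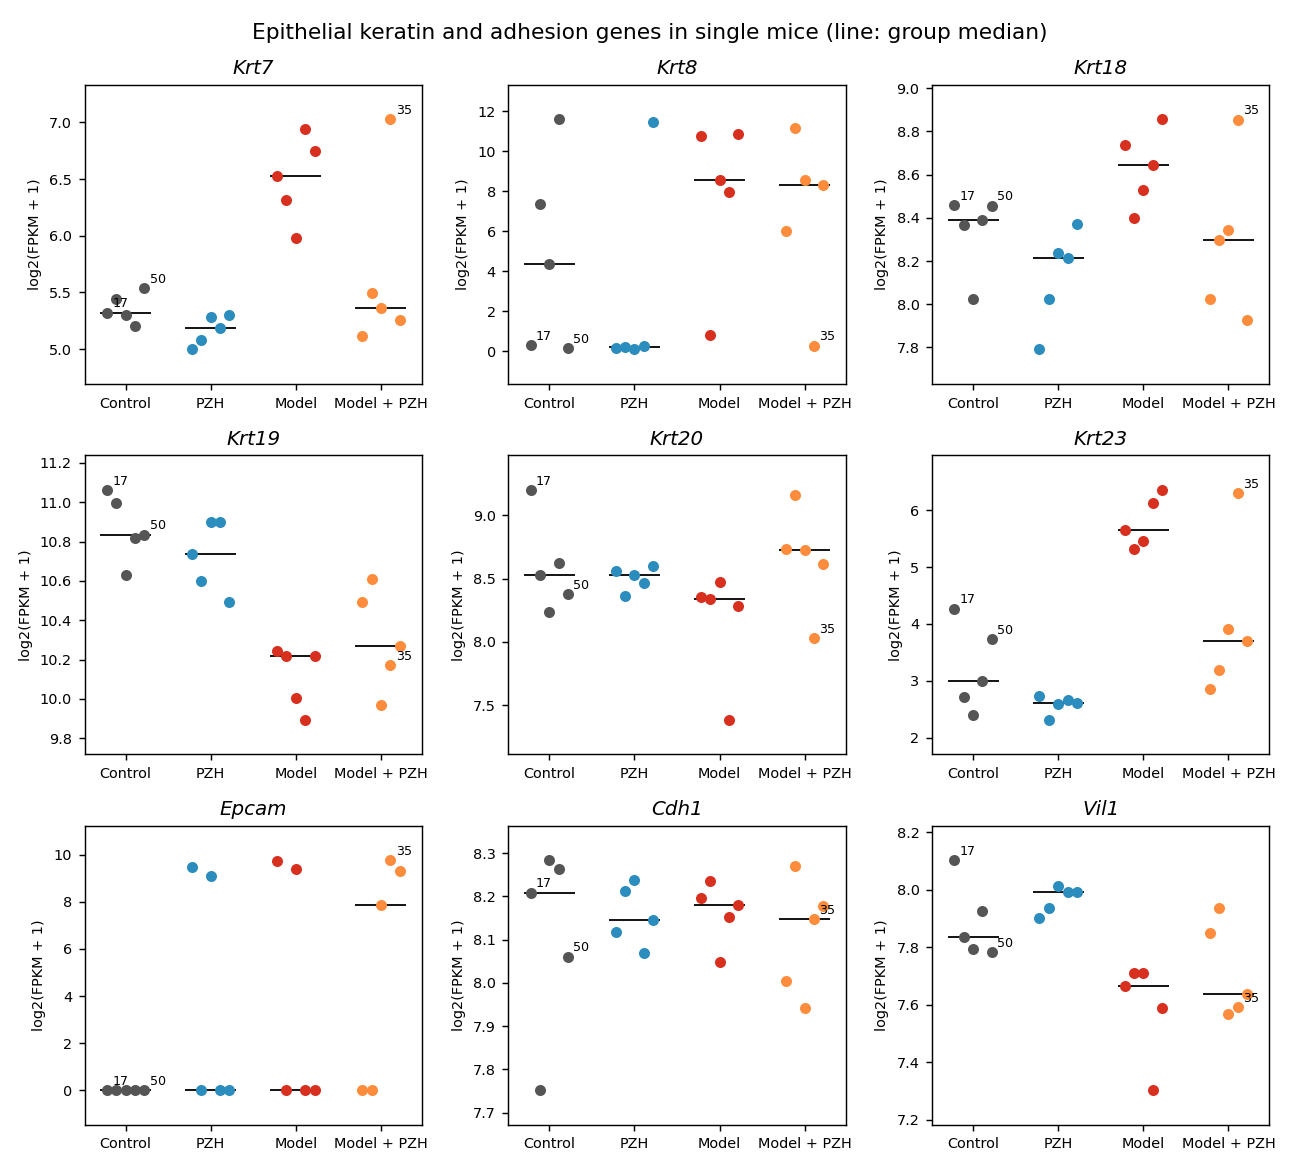
Level of each of the 9 genes in single mice as log2(FPKM + 1) (vertical axis, a different range in each panel) in the Control, PZH, Model and Model + PZH groups, with 1 point per mouse, a line at the group median, and mice 17, 50 and 35 numbered. Krt7 and Krt23 were high in all 5 Model mice and in mouse 35, Krt19 was low in all Model mice, and Krt8 and Epcam switched between near 0 and high values in most groups.

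Model against Control asks what AOM/DSS did. Krt23, a type I keratin, was at 18.3, 5.54, 4.24, 6.96 and 12.3 FPKM in the Control mice and at 49.5, 38.8, 43.1, 69.0 and 81.1 in the Model mice. Every Model mouse was above every Control mouse, and the highest Control values were those of mice 17 and 50. The difference was 2.57 on the log2(FPKM + 1) scale (SE 0.35, 5.92-fold, adjusted p = 0.000588 by limma).

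Krt7, a type II keratin, was at 39.0, 42.5, 38.4, 35.9 and 45.5 FPKM in Control mice and at 91.2, 78.4, 62.1, 121.8 and 106.4 in Model mice. Again the groups did not overlap. Its log2 difference was 1.14 (SE 0.17, 2.20-fold, adjusted p = 0.000874 by limma). Krt18, which forms filaments with Krt8, was at 350.8, 328.8, 259.0, 334.1 and 350.2 in Control and at 425.5, 336.8, 368.3, 398.8 and 462.1 in Model mice. Of the 5 Model mice, 4 were above all Control mice, but the log2 difference of 0.29 (SE 0.12, adjusted p = 0.104) did not pass.

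Krt19, the most abundant of the members measured without gaps, was at 2138, 2042, 1583, 1805 and 1827 FPKM in Control mice. In Model mice it was at 1213, 1190.0, 1026, 950.1 and 1192, all below the lowest Control mouse. The log2 difference was -0.75 (SE 0.13, 0.594-fold, adjusted p = 0.00191 by limma). Whether fewer epithelial cells in the piece or less Krt19 RNA per cell gives such a value cannot be told apart in bulk tissue.

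Vil1 was at 273.9, 227.8, 221.3, 242.1 and 219.3 in Control mice and at 201.9, 208.7, 208.6, 156.9 and 191.8 in Model mice. The groups did not overlap, yet the log2 difference of -0.29 (SE 0.11, adjusted p = 0.0721) missed the threshold in the 10 mice. It passed with all 20 mice in one model (adjusted p = 0.0316 by limma) and with values rescaled by the median of ratios (adjusted p = 0.0454). It did not pass without Control mice 17 and 50 (-0.26, adjusted p = 0.176). Nor did it pass without the expression filter (adjusted p = 0.114) or with a pseudocount of 0.1 (adjusted p = 0.0710). Krt20 was at 586.7, 367.2, 300.4, 393.1 and 331.0 in Control mice and at 325.5, 323.6, 354.9, 166.2 and 311.1 in Model mice. The groups overlapped, with a log2 difference of -0.42 (SE 0.23, adjusted p = 0.222). Without Control mice 17 and 50 it was -0.29 (adjusted p = 0.456 by limma).

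Cdh1 was at 294.7, 214.5, 310.5, 306.4 and 266.0 in Control mice and at 292.5, 300.4, 263.8, 283.3 and 289.0 in Model mice. Its log2 difference was 0.05 with a 95% interval from -0.20 to 0.30 (adjusted p = 0.796). The interval does not reach a change of 1.5-fold in either direction.

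Counted together, 3 of 8 members tested were called in Model against Control, against a background of 23.6% of 15812 genes called (16.4% higher and 7.23% lower). Epcam was not tested because too few mice of these groups had a value, and Krt8, which was tested and not called, is described by mouse further on. Krt7, Krt19 and Krt23 were also the members called when each mouse in turn was left out. In 4 members (Krt7, Krt19, Krt23 and Vil1) the groups did not overlap, against 18.4% of all genes. Without Control mice 17 and 50 the log2 differences were 3.09 for Krt23 (adjusted p = 0.000233), 1.18 for Krt7 (adjusted p = 0.00610) and -0.70 for Krt19 (adjusted p = 0.0137), so that 3 of 8 members were called against 17.8% of genes.

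Other tissue parts moved as well in Model mice. All 8 smooth muscle genes were called lower (median log2 difference -1.21), 4 of 8 leukocyte genes higher, and 5 of 6 colonocyte genes lower (median -2.18), where the median of all genes was 0.09. Of all genes tested, 16.4% were called higher and 7.23% lower. Among the colonocyte genes, Slc26a3 (-2.39), Aqp8 (-2.36), Car1 (-2.21) and Car4 (-2.15), which handle chloride, water and bicarbonate, fell most. None of the 7 tested keratins of stratified epithelium and none of the 5 goblet cell genes passed. Without Control mice 17 and 50, 4 of 6 tested keratins of stratified epithelium were called higher in Model mice (Krt14 by 3.17, Krt13 by 2.44, Krt15 by 1.96 and Krt4 by 1.23 on the log2 scale), the goblet cell gene Zg16 was called lower (-1.12), and 5 of 8 smooth muscle, 4 of 8 leukocyte and 4 of 6 colonocyte genes were called in the directions given above. Without these Control mice, 12.2% of all genes were called higher and 5.58% lower. How far these shifts in the makeup of the tissue account for the values of the members was not tested.

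**Figure D2:**
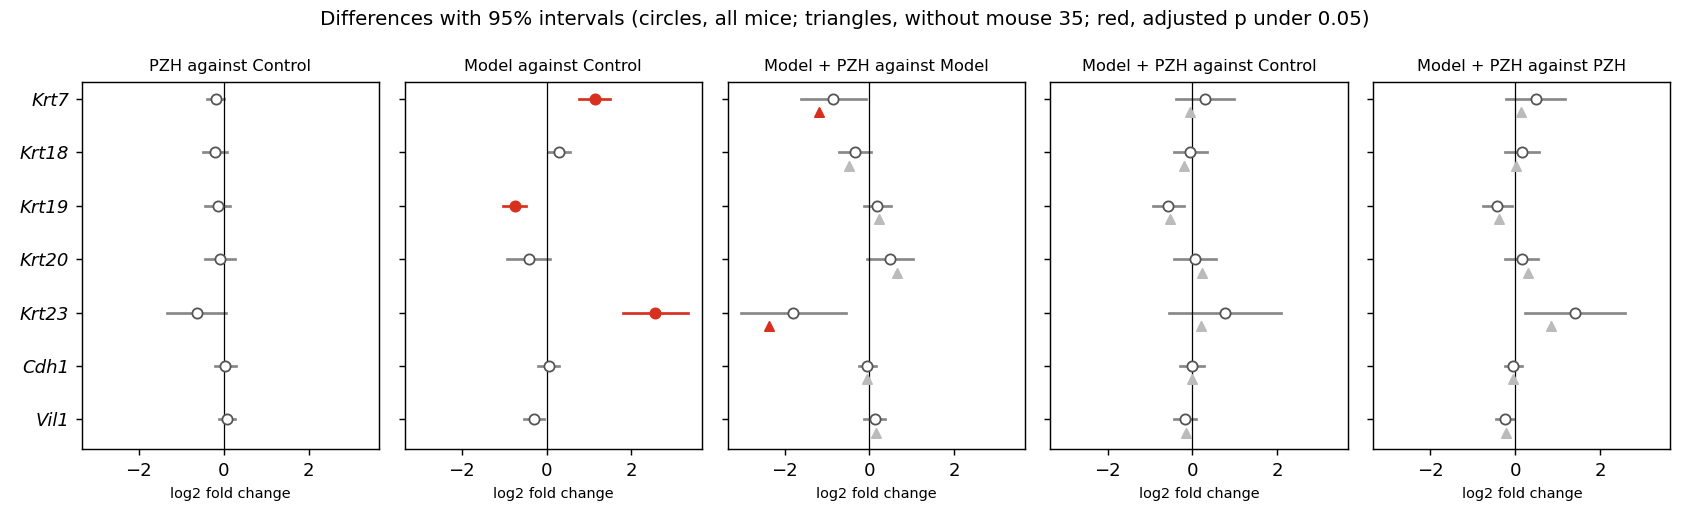
Difference in log2(FPKM + 1) (horizontal axis) of 7 members in 5 comparisons with 95% intervals, as circles for all mice and as triangles without Model + PZH mouse 35, in red where the adjusted p was under 0.05. The red circles are Krt7, Krt19 and Krt23 in Model against Control, and the red triangles are Krt7 and Krt23 in Model + PZH against Model, the genes whose values set mouse 35 apart.

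PZH against Control asks what PZH did in mice without AOM/DSS. Krt23 was at 5.62, 3.96, 5.04, 5.32 and 5.11 FPKM in PZH mice, within the range of Control mice 37, 41 and 48 but for the lowest value. Its log2 difference was -0.64 (95% interval -1.33 to 0.06, adjusted p = 0.584), and without Control mice 17 and 50 it was -0.12. Krt7 was at 31.0, 32.9, 38.0, 35.3 and 38.5 FPKM in PZH mice. Of these, 3 were below every Control mouse. The log2 difference was -0.19 (95% interval -0.40 to 0.02, adjusted p = 0.586), and the exact two-sided permutation test of this gene alone gave an unadjusted p = 0.0476.

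None of the 7 members tested was called in PZH against Control by limma, where 0.00645% of 15506 genes were called, and none had an unadjusted p under 0.05, against 8.84% of genes. The PZH mice had 220.5, 259.4, 301.2, 296.0 and 330.5 FPKM of Krt18 and 1703, 1550.0, 1910.0, 1906 and 1441 of Krt19. Both genes overlapped with Control. The log2 differences were -0.21 (95% interval -0.50 to 0.08) for Krt18, -0.14 (-0.43 to 0.14) for Krt19, -0.09 (-0.45 to 0.27) for Krt20, 0.04 (-0.20 to 0.29) for Cdh1 and 0.08 (-0.11 to 0.26) for Vil1. None of these 5 intervals reached a 1.5-fold change in either direction. Smooth muscle genes had a median of -0.71 in this comparison with none called.

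Model + PZH against Model asks what PZH did in mice given AOM/DSS. Krt23 was at 6.22, 8.18, 14.05, 77.7 and 11.96 FPKM in Model + PZH mice 2, 13, 15, 35 and 36. The values of 4 of them were below the lowest Model mouse (38.8), and mouse 35 was above 4 of the 5 Model mice. Over all mice the log2 difference was -1.79 (SE 0.56, unadjusted p = 0.00858, adjusted p = 0.356), and without mouse 35 it was -2.37 (SE 0.27, adjusted p = 0.00554).

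Krt7 followed the same pattern, at 33.7, 44.1, 40.0, 129.3 and 37.2 FPKM in the same mice. Here mouse 35 was the highest of all 20 mice, and the other 4 lay below the lowest Model mouse (62.1). The log2 difference was -0.85 (SE 0.34, adjusted p = 0.389) in all mice and -1.19 (SE 0.19, adjusted p = 0.00954) without mouse 35. Krt18 was at 259.1, 313.9, 323.6, 461.4 and 242.5, with mouse 35 highest in its group and the other 4 below every Model mouse, and its log2 difference was -0.34 (adjusted p = 0.462) with mouse 35 and -0.48 (adjusted p = 0.0639) without it.

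The other members overlapped between the groups. Krt20 was at 424.6, 571.4, 422.9, 260.2 and 390.5 in Model + PZH mice, where 4 of 5 were above all Model mice and mouse 35 was the lowest. Its log2 difference was 0.48 (SE 0.24, adjusted p = 0.463), and 0.64 without mouse 35 (adjusted p = 0.133). Krt19 was at 1439, 1562, 1001, 1152 and 1233, with a log2 difference of 0.19 (95% interval -0.13 to 0.50). Vil1 was at 229.5, 244.1, 189.0, 191.9 and 198.3, with 0.12 (-0.13 to 0.38), and Cdh1 at 255.8, 307.6, 244.8, 282.6 and 288.6, with -0.05 (-0.26 to 0.15).

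By limma, none of the 9 members was called in Model + PZH against Model, where 0.00629% of 15888 genes (1 gene) were called, and 2 members (Krt7 and Krt23) had an unadjusted p under 0.05, as 11.7% of genes did. Without mouse 35, 2 of 8 members were called, both lower, against 5.17% of 15639 genes (4.41% lower). These are the genes whose values set mouse 35 apart, and leaving out any other single mouse called none of the members. In the same fit 3 of 7 tested keratins of stratified epithelium were called lower (Krt14 -2.09, Krt15 -1.79 and Krt17 -1.30 on the log2 scale). Of 6 colonocyte genes 2 were called higher (Car4 1.625 and Slc26a3 1.58), where 0.761% of all genes were. No goblet cell, smooth muscle or leukocyte gene was called. Mouse 35 also had the lowest summed level of colonocyte genes in its group (631.5 FPKM against a group median of 1608) and of goblet cell genes (2070 against 6136), and the highest of leukocyte genes (752.3 against 373.0). The part of this makeup in its keratin values was not tested.

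**Figure D3:**
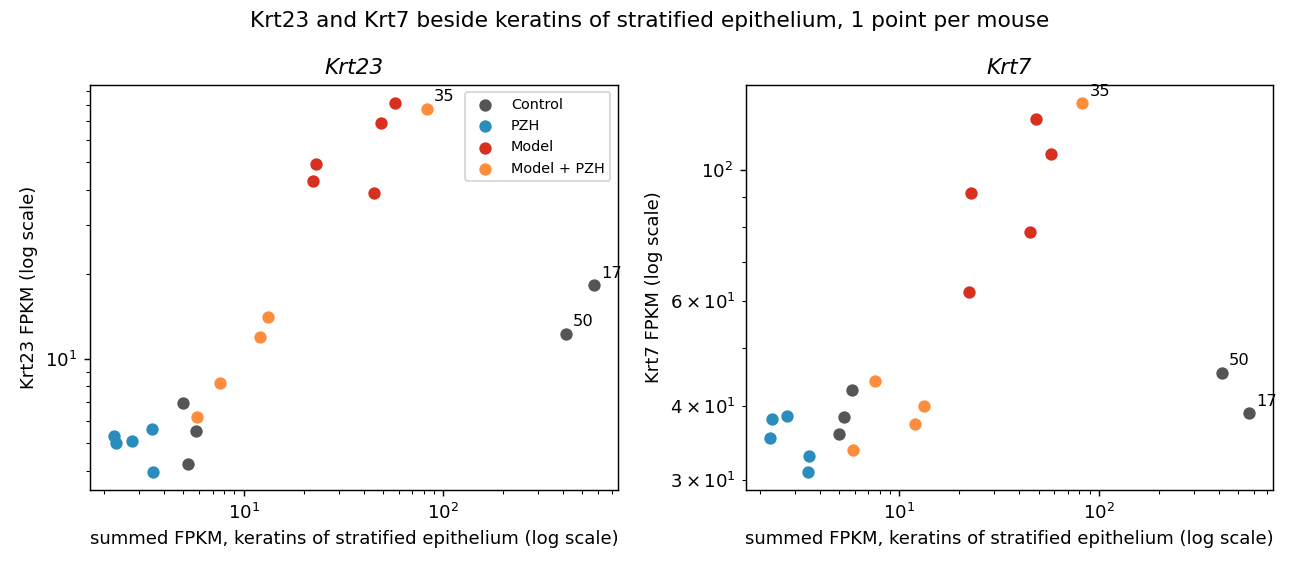
Krt23 (left) and Krt7 (right) FPKM of each mouse (vertical, log scale) against the summed FPKM of 11 keratins of stratified epithelium (horizontal, log scale), coloured by group. Mouse 35 lies with the Model mice at 82.9 on the horizontal axis, and Control mice 17 and 50 lie far to the right at 569.2 and 412.9 with 18.3 and 12.3 FPKM of Krt23.

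Krt23 and Krt7 were set beside the keratins of stratified epithelium because the Model mice and mouse 35 were above the other Model + PZH mice in all of these. The 2 Control mice with most of these keratins had the 2 highest Krt23 values of their group, 18.3 and 12.3 FPKM. Every Model mouse had more Krt23 than these 2 mice and lower summed stratified keratins. Krt7 was at 39.0 and 45.5 FPKM in them, beside 35.9 to 42.5 in the other Control mice. The part of stratified epithelium in the values was not tested.

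The interaction over all 20 mice asks whether the effect of PZH differed between mice with and without AOM/DSS. None of the 9 members was called by limma, where 0.0118% of 16936 genes were, and none had an unadjusted p under 0.05, against 10.3% of genes. The values were -1.15 for Krt23 (95% interval -2.57 to 0.26), -0.66 for Krt7 (-1.44 to 0.12), 0.57 for Krt20 (-0.06 to 1.21) and 0.33 for Krt19 (-0.06 to 0.72) on the log2 scale. Without mouse 35, Krt7 (-1.004, adjusted p = 0.0107) and Krt23 (-1.73, adjusted p = 0.0415) were called, both lower, against 2.83% of genes (2.49% lower). Here too the mouse left out is the one with the highest level of these genes in its group, and no other single mouse left out gave a called member.

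Model + PZH was also set against both groups without AOM/DSS. Krt19 was below every Control mouse in all 5 Model + PZH mice, as were 2.59% of genes. Its log2 difference was -0.57 (SE 0.16, adjusted p = 0.0880 by limma), and it passed with all 20 mice in one model (adjusted p = 0.0129). It did not pass without mouse 35 (-0.53, adjusted p = 0.142), without Control mice 17 and 50 (-0.51, adjusted p = 0.283) or without the expression filter (adjusted p = 0.195). It was at -0.42 (SE 0.15, adjusted p = 0.148) against PZH mice. Krt23 was above every PZH mouse in all 5 Model + PZH mice, as were 5.0% of genes, at 1.41 (SE 0.53, adjusted p = 0.167), and at 0.83 (adjusted p = 0.0806) without mouse 35. Against Control its difference was 0.77 (SE 0.60, adjusted p = 0.497), 0.20 without mouse 35 and 1.29 without Control mice 17 and 50. Krt7 differed from Control by 0.29 (SE 0.31) with mouse 35 and by -0.05 (SE 0.12) without it.

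None of 8 members tested was called in Model + PZH against Control and none of 9 in Model + PZH against PZH, where 2.42% of genes were called in each. An unadjusted p under 0.05 was found for 1 member (Krt19) in the first and 3 members (Krt19, Krt23 and Vil1) in the second, against 20.9% of genes in each. The exact permutation test of single genes gave an unadjusted p under 0.05 for the same members. Comparisons that use the same mice are not independent of each other.

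Among the single transcript rows, those of Krt7 were split between 2 long transcripts. ENSMUST00000068904, the protein-coding transcript that reaches the end of the gene, held 49.3% of the Krt7 FPKM over all mice, and ENSMUST00000131069, annotated as a retained intron, held 48.8%. The protein-coding row averaged 18.7 ± 2.42 FPKM in Control, 16.0 ± 1.77 in PZH, 49.9 ± 13.6 in Model and 26.01 ± 12.8 in Model + PZH mice (SD, n = 5). The retained-intron row lay between 15.6 and 28.0 FPKM in Control mice and averaged 18.6 ± 2.23 in PZH, 40.0 ± 12.4 in Model and 29.9 ± 27.2 in Model + PZH mice.

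The protein-coding row of Krt7 differed between Model and Control by 1.34 on the log2 scale (SE 0.19, adjusted p = 0.00223 over 40464 transcripts, of which 6.94% were called), and the retained-intron row by 0.86 (SE 0.25, adjusted p = 0.0700). In mouse 35 the retained-intron row was at 78.4 FPKM, above the 48.1 of its protein-coding row, whereas in Model mouse 33 it was at 20.5 against 41.1. A small Krt7 row that ends near the start of the main transcript, ENSMUST00000153021, was also higher in Model mice (0.71, adjusted p = 0.0326). This row was low, at a mean of 0.284 FPKM in Control and 1.16 in Model mice, and held 0.95% of the Krt7 FPKM. Whether the rows divide fragments that fit both cannot be told apart from the values.

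For Krt19, ENSMUST00000007317 held 97.7% of the FPKM and was lower in Model than in Control mice by itself (log2 difference -0.78, SE 0.10, adjusted p = 0.00123). The short Krt19 row ENSMUST00000126460 ranged from 1.88 to 196.1 FPKM between mice and was not called in any comparison. The main rows of Cdh1 (ENSMUST00000000312) and Vil1 (ENSMUST00000027366) held 99.0% and 97.9% of their genes. Krt8, Krt18, Krt20, Krt23 and Epcam had a single row each, although 5 transcripts of Epcam are annotated.

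Krt8 and Epcam need their values shown per mouse, because their rows jump between near or at 0 and high levels within a group (Krt8 in all 4 groups, Epcam in all but Control). Krt8, the usual partner of Krt18, was listed at 0.242, 161.9, 19.3, 3071 and 0.105 FPKM in Control mice and at 0.132, 0.165, 0.0706, 0.195 and 2795 in PZH mice. It was listed at 1749, 0.740, 375.2, 245.5 and 1873 in Model mice and at 62.8, 2317, 379.2, 0.219 and 319.3 in Model + PZH mice. Each group held both very low and very high values, and no statement on a change of Krt8 is made from this row.

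Epcam was listed at 0 in all 5 Control mice. It was at 717.6 and 552.5 FPKM in PZH mice 8 and 27 and at 0 in the other 3, at 843.8 and 672.5 in Model mice 23 and 33 and at 0 in the other 3, and at 232.6, 864.7 and 639.6 in Model + PZH mice 15, 35 and 36 and at 0 in the other 2. Cdh1 in the same mice stayed between 214.5 and 310.5 FPKM, so a row of Epcam at 0 stood beside the usual level of another epithelial adhesion gene.

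The files also hold 22252 rows for transcripts that StringTie assembled from the reads, which carry no gene name and took 12.1 to 14.85% of the summed FPKM of each mouse. For each member, the assembled locus was sought whose sum with the member varied least over the 20 mice, among loci whose highest value lay within 2-fold of the member's. This search was added after the values had been seen. For Epcam 1 of 33 loci reduced the coefficient of variation from 149.5% to 12.2%, and the next locus left 35.5%. For Krt8 1 of 10 loci reduced it from 156.2% to 20.3%, and the next left 45.4%. For the other 7 members the first and the next locus were closer to each other, from 16.1% and 16.2% for Krt23 to 5.28% and 7.55% for Vil1, and no sum is given for them.

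The sum of the Krt8 row and this locus was 3685, 3664, 2826, 3072 and 3446 FPKM in Control mice and 3147, 2599, 3093, 3151 and 2795 in PZH mice. It was 2262, 2155, 2234, 1767 and 2087 in Model mice and 2436, 2863, 2355, 2077 and 2522 in Model + PZH mice. All 5 Model mice were below every Control mouse in this sum, as was the case for 5.43% of all genes. That share cannot be compared with this sum, whose locus was picked over the same mice to vary least. The means were 2101 ± 199 in Model and 3339 ± 378 in Control mice (SD, n = 5), and the Model + PZH mean was 2450 ± 285. The sum of Epcam with its locus ranged from 712.9 to 842.8 in Control, 632.5 to 750.3 in PZH, 742.1 to 850.7 in Model and 538.1 to 918.3 in Model + PZH mice, with overlap between all groups. The files do not name the locus, and since it was picked for this fit the sums are a description without a test. They are not taken as the level of either gene.

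**Figure D4:**
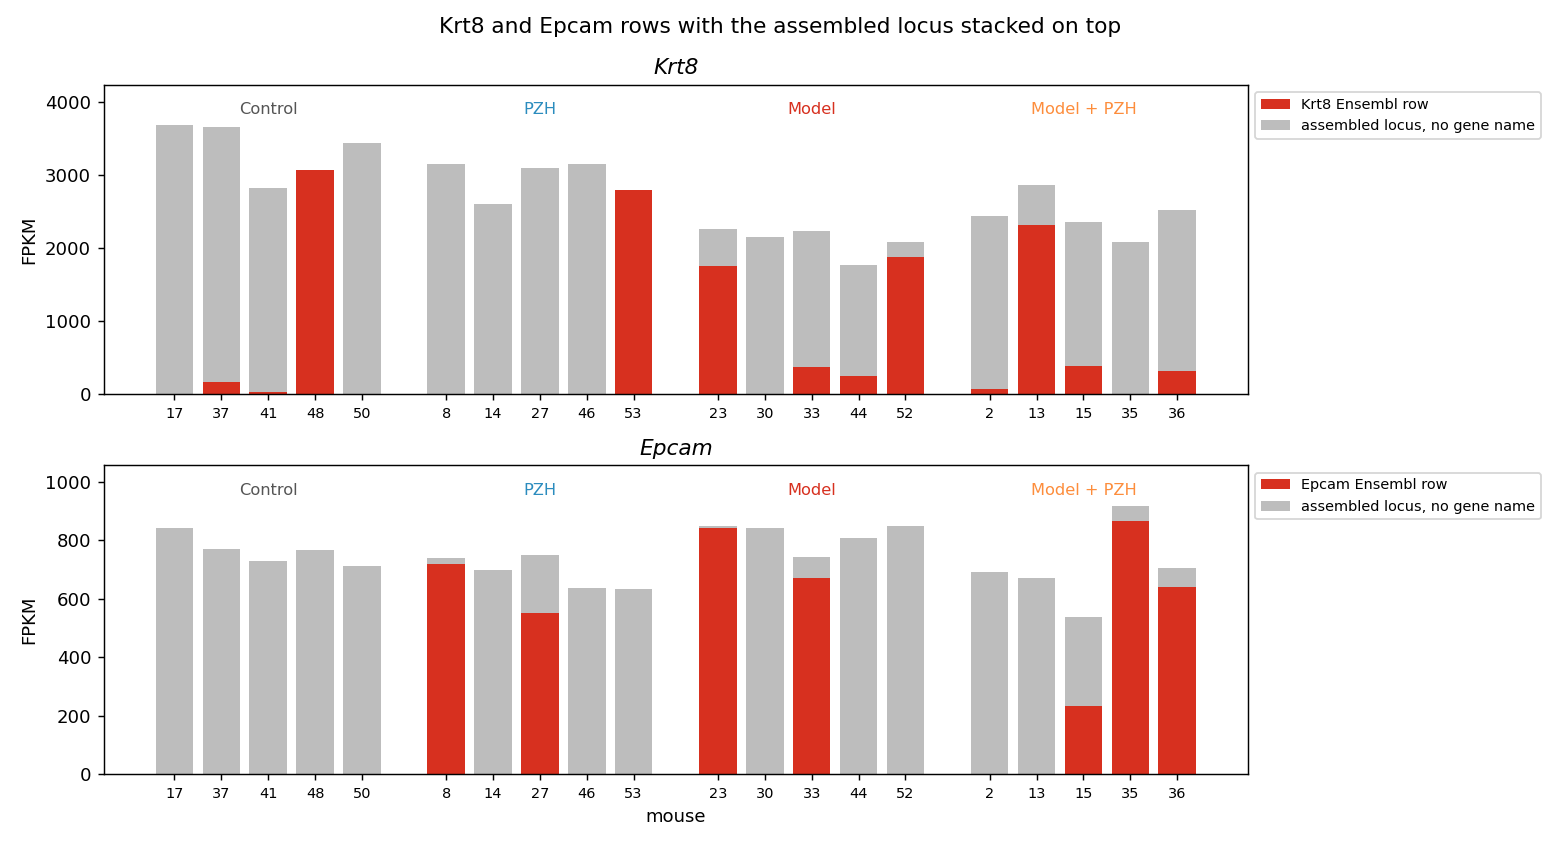
FPKM of the Ensembl row (red) of Krt8 (top) and Epcam (bottom) in each mouse, with the unnamed assembled locus chosen for the least variable sum stacked on it (grey). Where the red part is near 0 the grey part fills the bar, and the Krt8 sums were 1767 to 2262 in Model and 2826 to 3685 in Control mice.

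The balance of the type I keratins among the members was described by the share of each in their summed FPKM, without other type I keratins. Shares of a single sum depend on each other, so that a lower share of Krt19 means higher shares elsewhere. Krt19 made up 72.2 ± 2.14% (SD, n = 5) in Control, 72.2 ± 3.25% in PZH, 59.7 ± 2.19% in Model and 62.5 ± 4.51% in Model + PZH mice. Its highest share in a Model mouse, 63.0%, was below its lowest in a Control mouse, 69.1%. Krt18 made up 12.5 ± 1.02%, 12.03 ± 2.06%, 21.4 ± 2.70% and 16.0 ± 4.97% in the same order, and Krt23 0.351 ± 0.179%, 0.213 ± 0.0255%, 3.05 ± 1.036% and 1.21 ± 1.56%. The level of Krt18 itself was not called in Model against Control (log2 difference 0.29, adjusted p = 0.104 by limma).

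The type I sum itself was 2608 ± 346 FPKM in Control, 2351 ± 212 in PZH, 1865 ± 187 in Model and 2035 ± 270.3 in Model + PZH mice. The ratio of Krt19 to Krt18 was 5.81 ± 0.461 in Control and 2.83 ± 0.435 in Model mice, without overlap, and was 4.24 ± 1.36 in Model + PZH mice, where mouse 35 and mouse 15 had the lowest values. The ratio of Vil1 to Cdh1, both epithelial, was 0.864 ± 0.136 in Control and 0.679 ± 0.0848 in Model mice with some overlap.

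**Figure D5:**
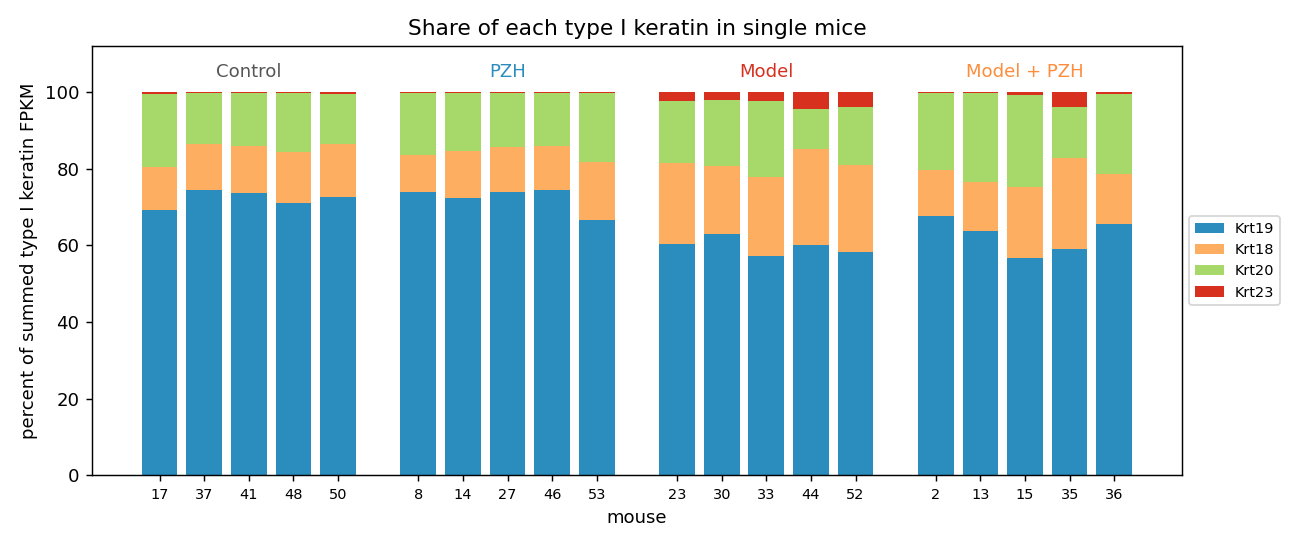
Share of Krt19, Krt18, Krt20 and Krt23 in the summed FPKM of these 4 type I keratins (vertical axis, percent) in each mouse, by group. The Krt19 share was 69.1 to 74.4% in Control and 57.2 to 63.0% in Model mice, and the Krt23 share was 2.05 to 4.36% in Model mice and 3.98% in mouse 35.

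Over the 20 mice, Krt7 and Krt23 had the most similar patterns among the members (Pearson r = 0.93 of log2(FPKM + 1)), followed by Krt19 and Vil1 (0.84), Krt7 and Krt18 (0.84) and Krt18 and Krt23 (0.81). Krt7 and Vil1 ran in opposite directions (-0.74). These values are descriptions over mice that share the 4 treatments. Of all other genes, Cers3 (0.99) and Ttc9 (0.98) were among those most like Krt23, and Gprin2, Sbk1 and Vopp1 (each 0.97) were most like Krt7.

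The genes most like Krt19 were Mgst3 (0.96), Tnni1 (0.93) and Tst (0.93), and those most like Vil1 were Ttc22 (0.90), Cs (0.89) and Slc16a1 (0.88). For Krt20 they were Btnl6 (0.89), Tmc5 (0.86) and Gltp (0.86), and for Krt18 Dnaja1 (0.88), Cd3eap (0.85) and Blvrb (0.85). Cdh1, which varied little, reached 0.81 with Mgat5, 0.79 with Klhl18 and 0.79 with Maml3.

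Genes that work with the members were counted in the same fit. Of 7 genes that bind or process EpCAM, 2 were higher and 2 lower in Model than in Control mice, where 16.4% of all genes were higher and 7.23% lower. The protease gene St14 and the hyaluronan receptor gene Cd44 rose by 0.37 and 0.53 on the log2 scale. The tetraspanin gene Cd9 fell by 0.40 and the protease inhibitor gene Spint2 by 0.33 on the log2 scale. Without Control mice 17 and 50 only Spint2 (-0.40) of these 7 was called.

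Of 12 adherens junction genes, 2 were higher and none lower, a share of higher genes near that of all genes: Nectin4 (1.65, SE 0.27, adjusted p = 0.00166), a cell adhesion molecule, and Ctnnb1 (0.52, SE 0.11, adjusted p = 0.00819), which encodes beta-catenin, the E-cadherin partner. Of 9 desmosome genes, which anchor keratins at cell contacts, Dsc2 alone was called (0.69, SE 0.15, adjusted p = 0.00738), a smaller share than the 16.4% of all genes called higher. Without Control mice 17 and 50, 2 of the 9 were called higher, Dsc2 (0.55) and Ppl (1.13), where 12.2% of all genes were. The brush border list, to which villin belongs by function, had 6 of 15 genes lower, where 7.23% of all genes were lower. None of the 15 was higher, and the list had a median of -0.46. Slc9a3r1 (-0.99), Cdhr2 (-0.74), Ush1c (-0.69) and Ezr (-0.66) fell most among the called genes, and these encode a scaffold, a microvillus adhesion protein, its anchor and ezrin.

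Of 13 epithelial transcription and splicing factors, 3 were lower and none higher in Model mice, where 7.23% of all genes were lower. These were Klf4 (-1.32, adjusted p = 0.00128), Hnf4a (-0.71, adjusted p = 0.0109) and Cdx1 (-0.62, adjusted p = 0.0131), which direct differentiation of intestinal epithelium. Of 10 repressors of E-cadherin and mesenchymal genes, Fn1 (0.98) and Snai1 (0.71) were higher and Cdh2 (-0.34) was lower. These shares are near the 16.4% higher and 7.23% lower of all genes. Snai1, a repressor of Cdh1, averaged 4.46 ± 1.44 FPKM in Model and 2.27 ± 0.385 in Control mice, beside the Cdh1 interval given above. Without Control mice 17 and 50, 4 of the 15 brush border genes were called lower, where 5.58% of all genes were. Of the 13 transcription and splicing factors, 4 were then called lower, with Cdx2 (-1.45) in addition. Fn1 was then the called gene of the repressor and mesenchymal list, and Snai1 was not called.

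In Model + PZH against Model none of the genes of these 6 lists was called in all mice. Without mouse 35, 1 gene was called lower in each of the adherens junction (Nectin4, -1.68), desmosome (Ppl, which encodes periplakin, -0.78) and E-cadherin repressor and mesenchymal (Fn1, -0.84) lists, where 4.41% of all genes were lower, and none in the others. The medians of the brush border and transcription factor lists were 0.19 and 0.24 in all mice, against -0.04 for all genes, and 0.28 each without mouse 35, against -0.06. In PZH against Control none was called.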

How the data were processed

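RNA-seq libraries of 20 mouse colons, 5 each of Control, PZH, Model and Model + PZH mice, were examined. Per the labels and the study's methods, RNA was depleted of ribosomal RNA, reads were filtered with NGSQC, aligned to mm10 with HISAT2 and quantified with StringTie. The submitters' processing notes name limma. The deposited values are FPKM per transcript, which the authors had not turned into counts or scaled further as far as the values show, so tests for counts were not used. Depth was read from the steps of FPKM multiplied by length, on which 45.0 to 50.7% of low values fell (within 0.02 of a step), so it is less certain in size than in ratio. The precision of low values is limited by that depth.

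FPKM of the 96032 Ensembl rows found in GENCODE M21 (GRCm38) were added up per gene (32991 genes). The 150 other Ensembl rows and the 22252 assembled rows enter no gene. For each comparison log2(FPKM + 1) of genes with at least 0.5 FPKM in at least 5 mice was compared with limma 3.58.1 (R 4.3.3) with an intensity trend, using the 10 mice of the 2 groups (20 for the interaction, which is the effect of PZH in AOM/DSS mice minus that in other mice). Genes were called at a Benjamini-Hochberg adjusted p under 0.05 over all genes tested. Fold changes are on the log2(FPKM + 1) scale, which understates the change of low genes. For single genes an exact permutation test (two-sided, smallest p for 5 against 5 mice 0.00794) was added. The scripts were tested on simulated data.

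The members and the gene lists were chosen with earlier results of these data known. The text names all 9 members, per list up to 4 called genes with the largest difference, and for each of the 7 members measured without gaps the 3 genes with the highest correlation, except for 1 gene that is not reported here and was also left out of its list. The alternatives were median of ratios scaling, no filter, a pseudocount of 0.1, all 20 mice in one model, and leaving out each mouse. Leaving out Control mice 17 and 50, and the sums with assembled loci, were added after the data had been seen. The authors' own comparisons were not used. RefSeq promoters (GRCm38.p6) were matched by symbol for 7 of 9 members. The labels do not say that same-group mice shared a cage or batch, and p-values measure the spread between these mice.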

Additional observations from a re-analysis of the deposited data

Results flagged for a closer look

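Of 35 group values of 5 mice tested for a mouse far from the rest, 7 exceeded Dixon's critical value of 0.71 for 5 mice. For independent and normally distributed values chance gives about 1 in 20 groups (1.75 of 35). The FPKM used here are not of that kind, as Krt8 jumps between near 0 and high levels, so these 2 counts cannot be compared. In mouse 35 of the Model + PZH group, Krt7 was at 129.3 FPKM, with 44.1 in the next mouse, and Krt23 at 77.7 FPKM, with 14.05 in the next. Krt8 was far above the rest of its group in 3 mice, at 3071 FPKM in Control mouse 48, 2795 in PZH mouse 53 and 2317 in Model + PZH mouse 13, where the next mice had 161.9, 0.195 and 379.2. Krt18 was low in Control mouse 41, at 259.0 FPKM against 328.8 in the next mouse. Krt20 was low in Model mouse 44, at 166.2 FPKM against 311.1 in the next.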

How the results depend on the processing

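In Model against Control, Krt7, Krt19 and Krt23 kept their direction and their call under all alternatives run, with 4 members called after median of ratios scaling or with all 20 mice in one model (Vil1 lower as well) and 3 under the others, and with 2516 to 3562 genes called when single mice were left out. Leaving out single mice gave 1 to 2 genes called in PZH against Control, 1 to 808 in Model + PZH against Model (0 to 2 members), 78 to 495 in Model + PZH against Control, 54 to 423 in Model + PZH against PZH and 0 to 476 in the interaction (0 to 2 members). The upper ends of the Model + PZH against Model and interaction ranges came without mouse 35. With all 20 mice in one model, 0 genes were called in PZH against Control, 76 in Model + PZH against Model, 1533 (1 member, Krt19) in Model + PZH against Control and 1043 in Model + PZH against PZH. Without the filter the counts were 0 in Model + PZH against Model, 98 in Model + PZH against Control, 90 in Model + PZH against PZH and 0 in the interaction, and with a pseudocount of 0.1 the interaction gave 0. Without Control mice 17 and 50 it gave 0, and Model + PZH against Control gave 29. The cause of these shifts was not tested.

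Some differences that were not called changed sign, those of Krt8 from values far from 0 (2.12 in Model + PZH against Control, -0.92 in Model + PZH against Model and 1.39 in the interaction). Rescaling by the median of ratios turned Cdh1 in Model against Control to -0.065 and Krt20 in Model + PZH against Control to -0.020. Without Control mice 17 and 50, Krt20 was 0.043 in PZH against Control, and Krt8 -0.89, Krt18 0.030 and Cdh1 0.0086 in Model + PZH against Control. Leaving out single mice, the log2 difference in PZH against Control ranged from -0.18 to 0.064 for Krt20 and from -0.047 to 0.085 for Cdh1. In Model against Control it ranged from -0.041 to 0.091 for Cdh1, and in Model + PZH against Model from -2.67 to 0.73 for Krt8. In Model + PZH against Control it ranged from -0.054 to 0.42 for Krt7, -0.19 to 0.041 for Krt18, -0.066 to 0.22 for Krt20 and -0.096 to 0.037 for Cdh1. In the interaction it ranged from -0.36 to 3.64 for Krt8 and from -0.031 to 0.079 for Vil1. No paired analysis was possible because the groups share no mouse numbers. FPKM without counts give no interval for single values. The tests of Krt8 and Epcam use the Ensembl rows alone, which leave out the unnamed assembled rows.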
